A study of Mus musculus with 28 samples.

Results

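The genes of the mitochondrial respiratory chain were followed in hair follicle stem cells of wild-type mice and of conditional Alkbh5 knockout mice. Alkbh5 is an RNA demethylase that erases m6A, a methyl group on adenosines. Members were chosen by symbol: Nduf genes of the a, b, c, s and v series, the Sdh, Uqcr and Cox4 to Cox8 genes and the Atp5 genes of the nucleus, and the 13 protein-coding genes of the mitochondrial genome. In the bulge table this gave 86 nuclear entries, or 85 symbols because Atp5o has 2 identifiers, and 13 mitochondrial genes, 99 of 56691 entries in all. The hair germ SMART-seq table held the same 86 and 13 among 57010 entries. The hair germ SHERRY2 table, whose library method was inferred, held 85 nuclear members among 47243 genes and no mitochondrial gene. Mitochondrial genes were therefore compared in the other datasets only.

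The respiratory chain moves electrons from NADH (complex I) and succinate (complex II) through complex III to oxygen at complex IV, and complex V, the ATP synthase, uses the resulting proton gradient to make ATP. Most subunits are encoded in the nucleus and imported. A few hydrophobic core subunits are made inside the mitochondrion from its own genome, whose long precursor transcripts are cut into single messenger RNAs, so each complex except complex II needs products of both genomes. Resting hair follicle stem cells are known for relying strongly on glycolysis.

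Mice were at postnatal day 69, and cells were sorted by flow cytometry from skin. Each of 3 datasets held 2 wild-type (WT) and 2 Alkbh5 conditional knockout (cKO) mice: bulge stem cells, which persist through hair cycles, and hair germ stem cells just beneath the bulge, both by SHERRY2, and hair germ stem cells again by SMART-seq. In SHERRY2 a transposase cuts RNA/DNA hybrids directly, while in SMART-seq whole cDNA molecules are amplified first. RNA input was 200 ng for the bulge libraries and 40 ng for those of both hair germ datasets. The sources used here give no Cre driver, deleted exon or sorting markers. The 16 m6A libraries of the series were not analysed here.

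Libraries held 14676168 to 21187283 reads in genes in the bulge, 9001396 to 14416601 in SMART-seq and 488648 to 2317407 in hair germ SHERRY2. Mean Alkbh5 in cKO was 3.24% of the WT mean in the bulge and 20.3% in hair germ SHERRY2, without overlap in either. In SMART-seq it was at 136 and 94.2 counts per 1000000 reads (CPM) in the WT libraries and at 83.5 and 106 in the libraries labelled cKO, so the groups overlapped and the target gene did not separate the labels of that dataset. Bulge and basal keratinocyte markers (Krt5, Krt14, Krt15 and 6 others) summed to 28118 to 34203 reads per 1000000 in the bulge and to 14213 to 23665 in the hair germ datasets. The 5 hair germ markers summed to 283 to 321 reads per 1000000 in the bulge, to 452 to 743 in SMART-seq and to 84.6 to 454 in hair germ SHERRY2, where 3 of 4 libraries lay below the bulge range.

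Promoter motifs, which the symbol rule did not use, were looked up as a description, with no test. Of 85 nuclear symbols, 69 had an entry in the RefSeq promoter table (GRCm38.p6, 250 bases before to 50 after the start), and 66 of these were also tested in the bulge. Both strands were searched for 3 short motifs of factors known to bind such promoters. The core motif of NRF1, a factor of mitochondrial biogenesis, was in 17 of 66 members (25.8%), against 11.0% of 10898 bulge-tested genes and 5.19% of 27025 genes with an entry. The motif of the ETS factor GABPA, CCGGAAG, was in 17 members (25.8%), against 19.2% and 9.93%. The YY1 motif AAGATGGC was in 10 members (15.2%), against 5.03% and 3.19%, and in 8 of the 10 a match lay after the start site. A match is a string of letters in this window and not a measured binding site.

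The following stretches are the 200 bases just before the start of the member that passed the test in the bulge (Cox7a2l), the member next in order of p (Uqcrh), a complex V stalk subunit (Atp5h), and a pair whose genotypes overlapped (Cox6a1 and Sdha). They are written 5′ to 3′ on the gene's strand with matches to the 3 motifs, on either strand, in capitals.
Cox7a2l, chr17:83514334-83514533, minus strand: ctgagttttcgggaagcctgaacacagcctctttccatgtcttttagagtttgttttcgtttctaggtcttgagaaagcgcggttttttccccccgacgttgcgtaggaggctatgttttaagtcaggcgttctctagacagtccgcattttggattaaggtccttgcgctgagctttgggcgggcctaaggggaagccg
Uqcrh, chr4:116075071-116075270, minus strand: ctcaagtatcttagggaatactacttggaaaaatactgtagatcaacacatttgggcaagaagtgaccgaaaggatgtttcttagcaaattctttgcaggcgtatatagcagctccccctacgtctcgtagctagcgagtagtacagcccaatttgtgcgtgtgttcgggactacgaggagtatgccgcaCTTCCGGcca
Atp5h, chr11:115419920-115420119, minus strand: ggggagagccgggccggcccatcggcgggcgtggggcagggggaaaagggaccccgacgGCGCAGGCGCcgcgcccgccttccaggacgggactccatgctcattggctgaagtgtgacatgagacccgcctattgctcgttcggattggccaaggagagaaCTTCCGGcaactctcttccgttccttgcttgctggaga
Cox6a1, chr5:115348959-115349158, minus strand: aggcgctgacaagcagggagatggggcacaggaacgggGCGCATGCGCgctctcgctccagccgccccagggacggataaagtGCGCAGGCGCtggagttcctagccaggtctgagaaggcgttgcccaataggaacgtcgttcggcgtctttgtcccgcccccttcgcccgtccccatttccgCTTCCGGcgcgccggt
Sdha, chr13:74350241-74350440, minus strand: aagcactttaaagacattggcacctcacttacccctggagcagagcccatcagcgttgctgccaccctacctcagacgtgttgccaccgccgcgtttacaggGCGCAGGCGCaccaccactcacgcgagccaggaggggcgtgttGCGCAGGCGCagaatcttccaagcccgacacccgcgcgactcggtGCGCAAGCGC
The stretch of Cox7a2l held none of the 3, that of Uqcrh 1 GABPA match, that of Atp5h 1 NRF1 and 1 GABPA match, that of Cox6a1 2 NRF1 and 1 GABPA match, and that of Sdha 3 NRF1 matches. In the bulge the median log2 fold change was -0.21 for the 17 members with an NRF1 motif and -0.26 for the 49 without, and -0.21 and -0.27 for those with and without a GABPA motif. For the YY1 motif these medians were -0.27 with and -0.25 without.

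In the bulge, nuclear respiratory chain genes were mostly slightly lower in cKO than in WT, and 1 of them, Cox7a2l, passed the test. Of the 86 nuclear entries, 79 passed the filter on low counts, and 66 of these had a log2 fold change below 0, against 51.1% of 15672 genes tested. Their median was -0.25, against -0.01 over all genes tested. edgeR's quasi-likelihood test called 1 nuclear member lower and none higher at an adjusted p under 0.05, while 3.04% of all genes tested were called, 1.6% lower and 1.44% higher. At an unadjusted p under 0.05, 22 nuclear members were lower and none higher, against 10.2% of all genes lower and 8.74% higher. The 2 cKO libraries lay below both WT libraries for 44 of the 79, against 26.2% of all genes, and above both for 2, against 24.7%. Single libraries stood apart: WT mouse 2 was the highest for 60 of the 79 and cKO mouse 1 the lowest for 55. Centred on each gene's mean, the library medians were 0.02 and 0.22 in WT and -0.20 and -0.02 in cKO, so WT mouse 1 and cKO mouse 2 were nearly alike. With libraries scaled to their totals alone, the 22 members at an unadjusted p under 0.05 became 6 of 79 tested. They became 25 of 79 with the replicate number as a block and 25 of 84 without the filter. Shares of all genes in these fits were not computed. The nuclear median was -0.35 without WT mouse 1, -0.15 without WT mouse 2, -0.13 without cKO mouse 1 and -0.33 without cKO mouse 2. By complex, the medians were close to each other: -0.27 in complex I, -0.18 in complex II, -0.21 in complex III, -0.19 in complex IV and -0.25 in complex V.

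**Figure D1:**
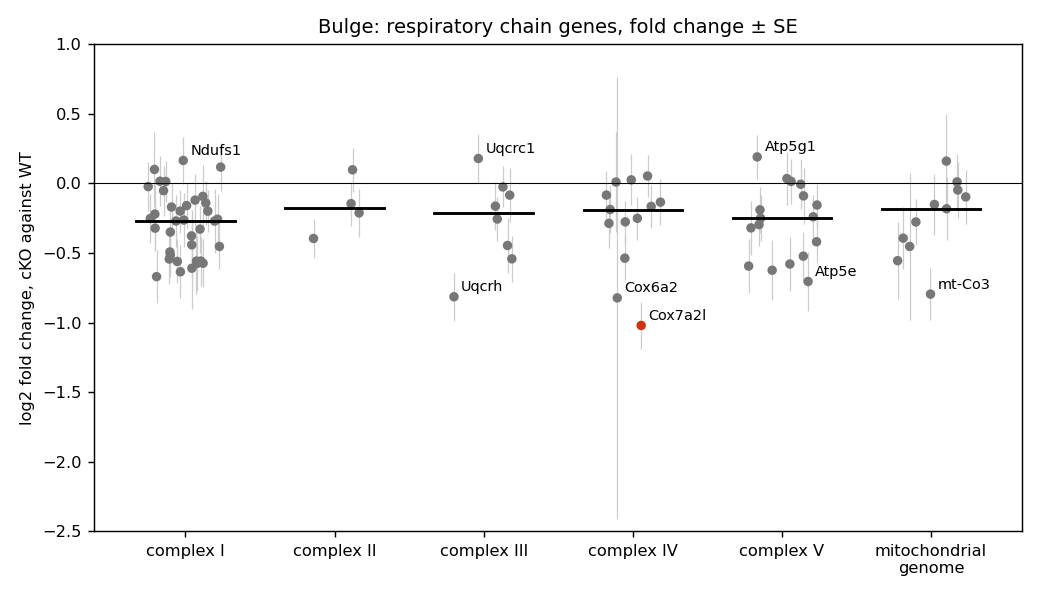
Log2 fold change of cKO against WT in the bulge (y axis, edgeR) for each tested respiratory chain gene, grouped by complex, with the standard error as a grey bar and the group median as a black line. The red point, Cox7a2l at -1.02, is the gene that passed an adjusted p of 0.05, and all 6 medians lie below 0.

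Cox7a2l, a relative of a complex IV subunit that links complexes III and IV into larger assemblies, was at 303 and 382 CPM in the WT libraries and at 174 and 164 CPM in the cKO libraries. The groups did not overlap. Its log2 fold change was -1.02 ± 0.17 (SE, n = 2 per group, adjusted p = 0.0258, edgeR). Without WT mouse 2 the value was -0.85 with an adjusted p of 0.0588, so the call rested in part on that library. Its mean per-length level over the 4 libraries, 170 FPKM (reads per kilobase of exon, scaled to library depth), was second to Cox4i1 among nuclear complex IV genes.

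Complex III held the next gene. Uqcrh, the acidic hinge subunit that docks cytochrome c, was at 131 and 171 CPM in WT and at 89.5 and 82.4 CPM in cKO, without overlap. Its log2 fold change of -0.82 ± 0.17 had an adjusted p of 0.0519 (edgeR) and so missed the threshold. Uqcrfs1, the Rieske iron-sulfur protein that carries electrons inside the complex, was at 121 and 111 CPM in WT and at 70.7 and 88.5 CPM in cKO (-0.54, adjusted p = 0.131). The large structural core proteins behaved otherwise: Uqcrc1 was at 354 and 311 CPM in WT and 338 and 415 CPM in cKO, and Uqcrc2 at 135 and 126 CPM in WT and 121 and 136 CPM in cKO. For both, the groups overlapped.

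Among 37 complex I genes, 32 had values below 0 (51.1% of all genes did), 11 were lower at an unadjusted p under 0.05 (10.2%) and 23 lay below WT without overlap (26.2%). The pair with the lowest p were accessory subunits, which surround the catalytic core. Ndufa7 was at 56.6 and 65.0 CPM in WT and at 40.5 and 41.9 CPM in cKO (log2 fold change -0.56 ± 0.16, adjusted p = 0.109, edgeR). Ndufa6 was at 57.4 and 72.8 CPM in WT and at 36.1 and 45.6 CPM in cKO (-0.67 ± 0.19, adjusted p = 0.114). Neither passed the threshold, though both kept their groups apart. Ndufb11, a membrane-arm subunit with the highest per-length level among nuclear complex I genes (mean 99.0 FPKM), was at 96.0 and 114 CPM in WT and 69.7 and 83.1 CPM in cKO (-0.45). Ndufs1, the largest core subunit, was at 75.6 and 90.9 CPM in WT and at 83.8 and 103 CPM in cKO, with overlap.

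Complex II, the succinate dehydrogenase, has 4 subunits and none from the mitochondrial genome. Sdhc, a membrane anchor, was at 124 and 127 CPM in WT and at 92.8 and 98.2 CPM in cKO, a difference larger than the spread within either group, but with an adjusted p of 0.178 (log2 fold change -0.40 ± 0.14, edgeR). Sdhd, the other anchor and the complex II gene with the highest per-length level (52.9 FPKM), was at 65.2 and 75.2 CPM in WT and at 53.7 and 67.3 CPM in cKO (-0.21, adjusted p = 0.574). The flavoprotein Sdha was at 147 and 159 CPM in WT and at 149 and 178 CPM in cKO. The cKO libraries of Sdhd and Sdha overlapped those of WT.

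In complex IV, Cox4i1, a regulatory subunit that binds ATP, was at 341 and 378 CPM in WT and at 264 and 232 CPM in cKO (log2 fold change -0.54 ± 0.16, adjusted p = 0.119, edgeR). The groups did not overlap, and Cox4i1 had the highest per-length level among nuclear genes of the complex (mean 194 FPKM). Cox6a1 and Cox6b1, at 152 FPKM each on average, overlapped between genotypes. Their values were 96.6 and 112 CPM in WT against 109 and 107 CPM in cKO for Cox6a1, and 105 and 121 CPM against 92.1 and 113 CPM for Cox6b1.

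In complex V the alpha and beta subunits of the catalytic head overlapped between genotypes, while most of the stalk and membrane sector lay lower in cKO without passing the test. Atp5a1, the alpha subunit and the nuclear member with the highest per-length level (mean 271 FPKM), was at 827 and 878 CPM in WT and at 799 and 898 CPM in cKO. Atp5b, the catalytic beta subunit, was at 973 and 928 CPM in WT and at 871 and 1074 CPM in cKO. Neither differed beyond the spread within a group. Atp5e, the small epsilon subunit of the central stalk, was at 67.9 and 101 CPM in WT and at 54.3 and 49.5 CPM in cKO (log2 fold change -0.71 ± 0.21, adjusted p = 0.123, edgeR). Atp5l, subunit g of the membrane sector, was at 116 and 167 CPM in WT and at 95.7 and 91.6 CPM in cKO (-0.59 ± 0.19, adjusted p = 0.15). Setting aside the head and central stalk genes and the c subunit, 9 genes of the membrane sector and stalk were tested, Atp5l among them. All 9 had values below 0 (51.1% of all genes did), with a median of -0.32. Of these, 8 lay below WT without overlap (26.2% of all genes did). Of the 3 c subunit genes set aside, 1 was below 0 and 2 were above. A further grouping was made outside the plan. It joined the core subunits of complex I, the catalytic ones of complex II, the large ones of complex III and 5 complex V genes. These 5, the head and central stalk genes, included the small Atp5e, the lowest value of the group. No complex IV gene was in it. In this group 13 of 17 values were below 0 (51.1% of all genes were), with a median of -0.14. Of the other nuclear members, 53 of 62 were below 0, with a median of -0.27.

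Scaling moved these bulge values. When libraries were scaled to their totals alone, the median of all genes was 0.16 and that of the nuclear members -0.08, with 50 of 79 below 0. The gap between nuclear members and all genes was -0.24 on the main scale and -0.24 with totals alone. Leaving out each library in turn moved the nuclear median between -0.35 and -0.13. Short genes were lower in cKO over the whole table: the median was -0.24 for 1254 genes of up to 1000 bases of exon and 0.09 for 5779 genes over 5000 bases. The nuclear members had a median of -0.24 at up to 1000 bases (18 genes), -0.31 at 1000 to 2000 bases (32 genes, against -0.20 over all genes of that length), -0.14 at 2000 to 3000 bases (11 genes, against -0.10), -0.16 at 3000 to 5000 bases (15 genes, against -0.01) and -0.54 above 5000 bases (3 genes). Among genes above 20 FPKM, the all-gene medians were lower: -0.54 at up to 1000 bases, -0.36 at 1000 to 2000, -0.21 at 2000 to 3000 and -0.09 at 3000 to 5000. The member medians were not limited to 20 FPKM, so the sets differ. Beside these all-gene medians the members were not lower in the first 3 of these length ranges. They were lower at 3000 to 5000 bases and above 5000 bases, where the all-gene median above 20 FPKM was 0.05. Across the 79 members, Spearman's rho of the fold change with exonic length was 0.129, as a description over genes that share libraries. Immune markers were lower in the same cKO libraries: all 7 of 7 (Ptprc, Cd74, H2-Aa, H2-Ab1, Cd83, Cd207 and Cd3e) lay below WT without overlap, against 26.2% of all genes. They summed to 201 to 248 reads per 1000000 in WT and 52.8 to 95.5 in cKO. Their part in the member values was not tested. In bulk libraries, fewer cells of a type and less RNA per cell cannot be told apart.

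The mitochondrial genes were the most abundant members by far. In the bulge, mt-Co1, the catalytic subunit of complex IV, had a mean of 5720 FPKM and the third highest value of all genes. It was followed by mt-Cytb, the core of complex III, at 2555 FPKM, and the complex I genes mt-Nd1 at 2494 FPKM, mt-Nd2 at 1083 FPKM, mt-Nd4 at 766 FPKM and mt-Nd5 at 488 FPKM. mt-Nd6, the only one encoded on the other strand, was at 302 FPKM. The highest nuclear member, Atp5a1, reached 271 FPKM, below all 7 of these means.

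A contiguous stretch of the mitochondrial genome stood far lower. The 6 neighbouring genes mt-Co2, mt-Atp8, mt-Atp6, mt-Co3, mt-Nd3 and mt-Nd4l, from position 7013 to 10173 of the mitochondrial genome as the bulge table gives it, had 0.46 to 68.7 FPKM in the bulge, while the other 7 had 180 to 6360 FPKM. In SMART-seq the same 6 genes had at most 76.7 RPKM (the same per-length unit, computed from the counts) and the other 7 at least 374. Per library, these 6 genes held 0.505 to 0.63% of mitochondrial member reads in the bulge and 0.835 to 0.999% in SMART-seq. They encode subunits of complexes I, IV and V.

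The bulge table also lists 7 genes without a descriptive name on chromosome 1, from 24650616 to 24655278 on the minus strand. No genome build is named for the bulge positions, and they are not those of GRCm38.p6. Uqcrh ends at 115932268 among them, whereas the GRCm38.p6 stretch before its start begins at 116075071. The exonic lengths of 5 of the 7 genes come close to those of mitochondrial genes. Gm10222 (294 bases) matched mt-Nd4l, Gm28438 (345 bases) mt-Nd3, Gm28437 (783 bases) mt-Co3 and Gm10925 (678 bases) mt-Atp6 within 3 bases of length, and Gm28661 (681 bases) matched mt-Co2 and mt-Atp6 alike. By length, Gm28439 (876 bases) and Gm29216 (492 bases) matched none, and none matched mt-Atp8. Along the minus strand the 7 genes keep the order and spacing of the mitochondrial genome, with Gm28661 at the place of mt-Co2. Gm29216 lies at the place of the end of mt-Co1 and Gm28439 at that of the start of mt-Nd4. The gap between Gm28661 and Gm10925 lies at the place of mt-Atp8. The sequences were not compared. Their reads were of the size of the mitochondrial ones: Gm28437 had 524 and 418 reads for WT and 271 and 273 for cKO, where mt-Co3 had 703 and 545 for WT and 386 and 403 for cKO. Gm10925 had 752, 419, 609 and 811 reads in WT 1, WT 2, cKO 1 and cKO 2, and mt-Atp6 had 493, 278, 351 and 459. No source used here says how reads that fit both places were counted. The levels of mt-Co2, mt-Atp8, mt-Atp6, mt-Co3, mt-Nd3 and mt-Nd4l, and of parts of mt-Co1 and mt-Nd4, are therefore uncertain. So is any difference in these genes.

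**Figure D2:**
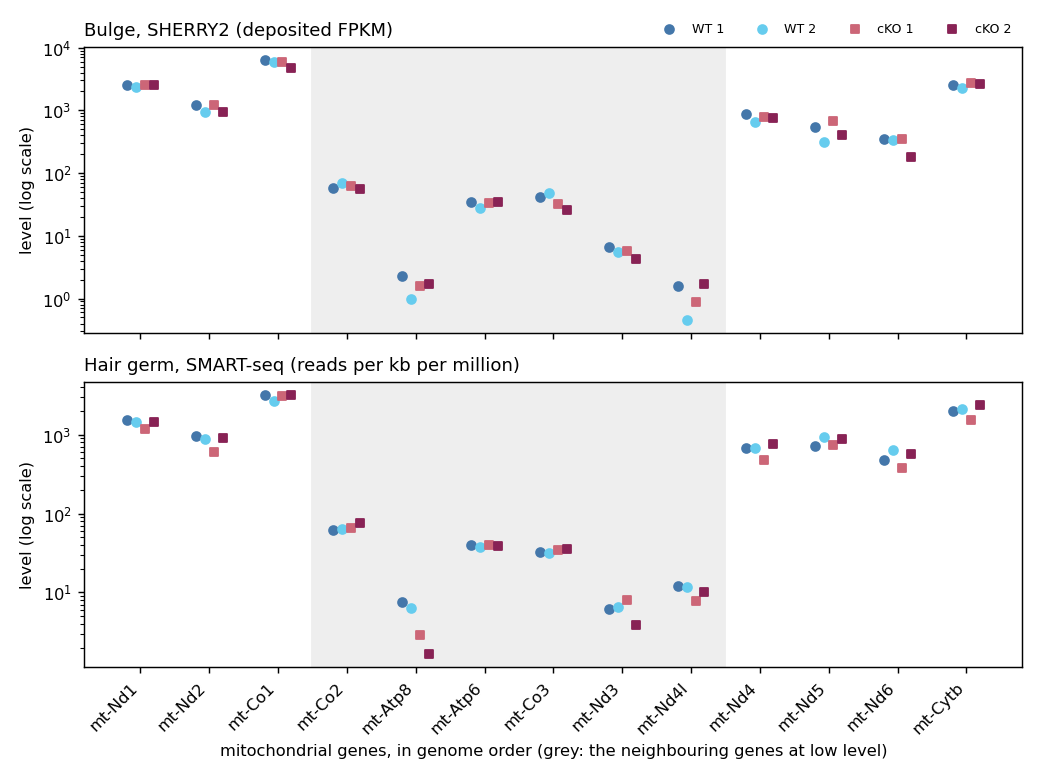
Level per length of the 13 mitochondrial genes in genome order (x axis) in each library, on a logarithmic y axis, as deposited FPKM in the bulge (top) and RPKM in SMART-seq (bottom). Circles are WT and squares cKO libraries, and the 6 genes in the grey band lie at or below 76.7 in every library while the others lie above 180.

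No mitochondrial gene passed the test in the bulge. Of 11 tested (mt-Atp8 and mt-Nd4l did not pass the filter), 9 had values below 0 (51.1% of all genes did), with a median of -0.18. Without overlap, 6 lay below WT, against 26.2% of all genes: mt-Co1, mt-Co2, mt-Co3, mt-Nd1, mt-Nd3 and mt-Nd6. Of these, mt-Co2, mt-Co3 and mt-Nd3 are among the uncertain genes, and mt-Co1 is uncertain in part. Mitochondrial genes share long precursor transcripts, so they are not independent of one another. mt-Co3, one of the uncertain genes, was at 35.9 and 38.8 CPM in WT and at 23.9 and 19.2 CPM in cKO (log2 fold change -0.80 ± 0.18, adjusted p = 0.0667, edgeR). The log2 fold change of mt-Co1, uncertain in part, was -0.39 (adjusted p = 0.402, edgeR). The gene was at 10642 and 9601 CPM in WT and at 8511 and 6892 CPM in cKO, without overlap. It made up 52.0% and 55.0% of mitochondrial member reads in WT and 48.7% and 46.4% in cKO, and the exact two-sided permutation test gave p = 0.333, the smallest that 2 against 2 libraries allow. mt-Nd6 was at 193 and 184 CPM in WT and at 169 and 88.0 CPM in cKO (-0.56, adjusted p = 0.332), with cKO mouse 2 far below the other libraries.

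Several other mitochondrial genes differed more between mouse numbers than between genotypes. mt-Nd5 was at 1084 and 597 CPM in WT and at 1188 and 688 CPM in cKO, high in both mice numbered 1 and low in both numbered 2 (0.16, adjusted p = 0.851, edgeR). mt-Cytb was at 3157 and 2670 CPM in WT and at 2996 and 2871 CPM in cKO, in the same order. mt-Nd2 was at 1377 and 1027 CPM in WT and at 1181 and 935 CPM in cKO, also higher in the mice numbered 1. mt-Nd1 lay just below WT without overlap, at 2609 and 2338 CPM in WT and at 2297 and 2325 CPM in cKO. The numbers are not stated to pair the mice.

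The balance of the genomes did not differ by genotype beyond its spread. In the bulge, nuclear members took 0.753% and 0.867% of reads in WT and 0.736% and 0.837% in cKO. Mitochondrial members took 1.89% and 1.67% in WT and 1.85% and 1.58% in cKO. The ratio of mitochondrial to nuclear reads was 2.51 and 1.93 in WT and 2.51 and 1.88 in cKO (exact two-sided permutation p = 0.667), so mice numbered 1 resembled each other across genotypes, and mice numbered 2 did too. By complex, the share of complex IV genes was 0.126% and 0.152% in WT and 0.116% and 0.121% in cKO, without overlap (exact permutation p = 0.333). That of complex V was 0.318% and 0.358% in WT and 0.323% and 0.371% in cKO. The Wilson 95% intervals of the nuclear and mitochondrial shares reached at most 0.0217 percentage points to either side and cover counting error only.

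In SMART-seq, nuclear members took 0.373% and 0.406% of reads in WT and 0.419% and 0.350% in the libraries labelled cKO. Mitochondrial members took 1.23% and 1.20% in WT and 1.06% and 1.31% in the libraries labelled cKO. The ratio was 3.30 and 2.95 in WT and 2.53 and 3.73 in the libraries labelled cKO (exact permutation p = 1): the libraries labelled cKO were the lowest and the highest of the 4. The datasets differed far more in mitochondrial rRNA and tRNA genes, which are not members. These took 11.2 to 13.9% of SMART-seq reads and 0.0517 to 0.182% of bulge reads.

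**Figure D3:**
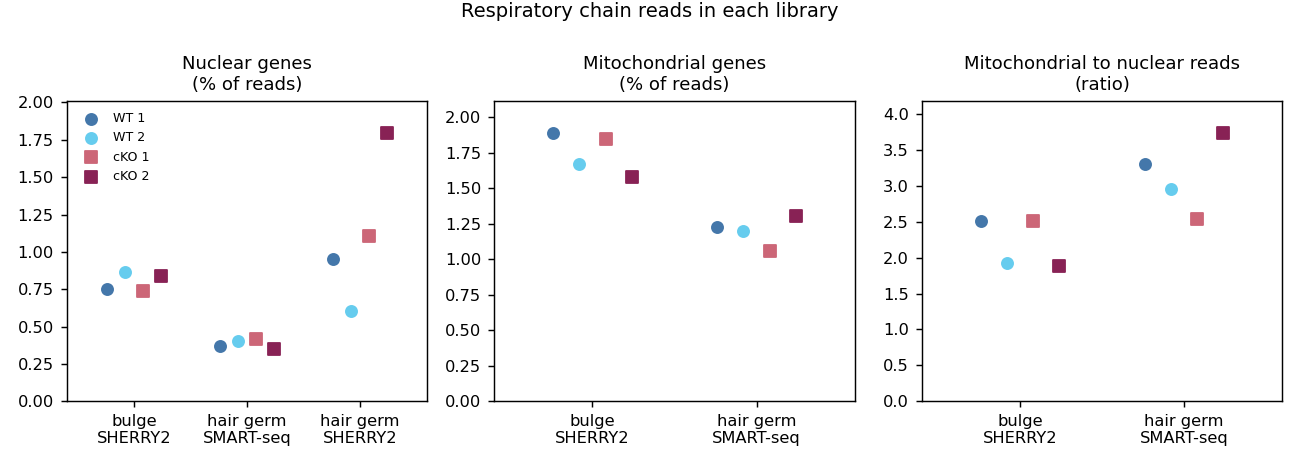
Share of reads held by nuclear members (left) and mitochondrial members (middle), in percent, and their ratio (right), with 1 point per library, circles for WT and squares for cKO. In the bulge the ratio sits near 2.5 in both mice numbered 1 and near 1.9 in both numbered 2, and in hair germ SHERRY2 both cKO libraries lie above both WT libraries in nuclear share.

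Several complex IV and V subunits have isoforms of other tissues. Cox4i2, the lung isoform, had 1 read at most in a bulge library, or 0.0461% of the per-length level it shares with Cox4i1. The testis isoform Cox6b2 made up 2.54% and 2.89% of the Cox6b1 and Cox6b2 level in WT and 3.48% and 2.61% in cKO. Cox7b2 had no read in any bulge or SMART-seq library, which allows up to 3 reads, or 0.142 to 0.333 reads per 1000000, for counting error only. In the bulge and SMART-seq Cox8c had 2 reads, both in bulge cKO mouse 1, and in hair germ SHERRY2 it had 1 and 0 recovered reads in WT and 1 and 3 in cKO.

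The heart and skeletal muscle isoforms had few reads, unevenly spread over the libraries. Cox6a2 had 25 reads in WT mouse 1, 15 in cKO mouse 2 and none in the other bulge libraries, and Cox8b had 18, 11 and none. Cox7a1 had 7 and 6 reads for WT and 0 and 24 for cKO. The skeletal muscle genes Mb, Ckm and Acta1 were high in the same libraries: Mb had 305 and 222 reads in WT mouse 1 and cKO mouse 2 and 2 in each of the others. Acta1 had 69 and 39 reads there and 0 in the others, and Ckm 68 and 50 against 3 and 6. Over all 7 muscle markers the sum was 22.7 and 5.52 reads per 1000000 in WT and 1.51 and 17.4 in cKO, with Tnnt3 at 0 in every library and Mylpf highest in WT mouse 2 (75 reads). Cox6a2 and Cox8b had reads only in the 2 bulge libraries where Mb, Ckm and Acta1 were high, 1 of each genotype, whereas Cox7a1 was not raised in WT mouse 1. In SMART-seq, Cox6a2 had no read, Cox8b at most 2, and Cox7a1 11 and 15 in WT and 16 and 4 in the libraries labelled cKO.

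**Figure D4:**
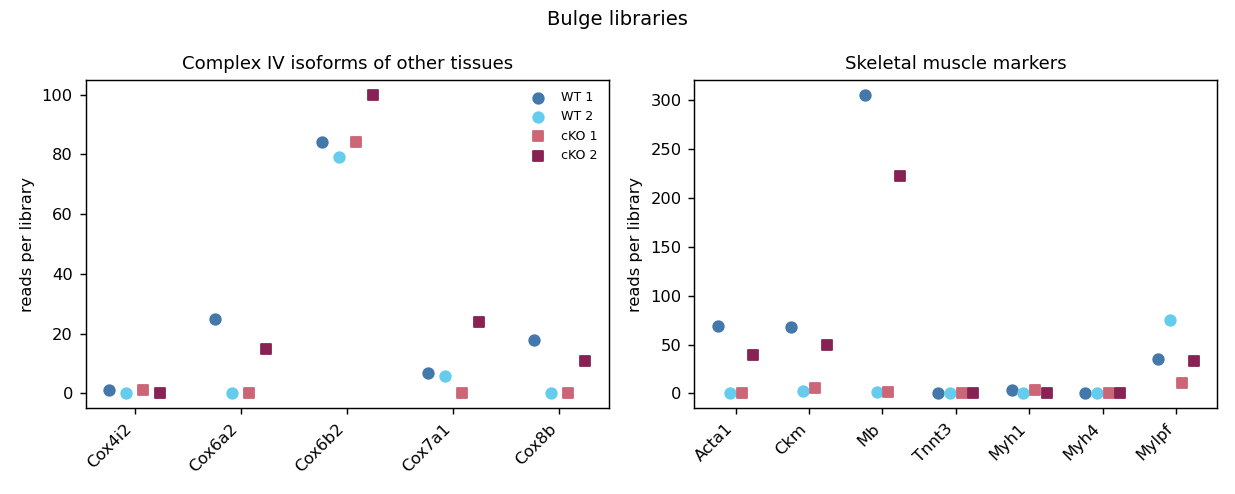
Reads in each bulge library (y axis) for complex IV isoforms of other tissues (left) and for the 7 skeletal muscle markers (right), with circles for WT and squares for cKO. Cox6a2, Cox8b, Acta1, Ckm and Mb are raised in WT mouse 1 and cKO mouse 2, whereas Cox6b2 lies between 79 and 100 reads in all 4 libraries.

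Among the related genes Cox7a2, Cox7a2l and Cox7a1, the part held by Cox7a2l was lower in cKO in the bulge. Cox7a2, the subunit that Cox7a2l resembles, was at 67.0 and 76.3 CPM in WT and at 58.7 and 59.5 CPM in cKO (log2 fold change -0.28 ± 0.15, adjusted p = 0.382, edgeR). Per length, Cox7a2l made up 74.1% and 76.0% of the set in WT and 65.4% and 63.0% in cKO. The ATP synthase c subunit has 3 genes with the same mature protein, and none passed the test. Atp5g2 was at 152 and 151 CPM in WT and at 104 and 122 CPM in cKO (-0.42, adjusted p = 0.185) and Atp5g1 at 57.5 and 53.8 CPM in WT and at 58.8 and 68.1 CPM in cKO (0.19, adjusted p = 0.579), both without overlap and in opposite directions. Atp5g3 was at 161 and 184 CPM in WT and at 158 and 190 CPM in cKO, with overlap. Per length, Atp5g2 made up 51.4% and 48.6% of the set in WT and 42.4% and 42.0% in cKO. Sequences shared by these copies could split their reads, which was not tested.

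In hair germ SMART-seq, no respiratory chain gene passed the test, and 0% of all genes did. Of 79 nuclear members tested, 52 had values below 0 (52% of all genes did), with a median of -0.04 (all genes -0.02), none had an unadjusted p under 0.05 (1.02% of all genes did), 14 lay below WT without overlap, against 12.5% of all genes, and 4 above, against 11.8%. Of 13 mitochondrial genes, 9 had values below 0, with a median of -0.12. Complex medians ran from -0.08 in complex V to 0.00 in complex II. The lowest nuclear p belonged to Ndufa11, a membrane-arm assembly subunit of complex I, at 30.0 and 20.4 CPM in WT and 18.8 and 15.7 CPM in the libraries labelled cKO (log2 fold change -0.55 ± 0.30), and it did not pass. Cox5a, a complex IV subunit, was at 12.5 and 17.9 CPM in WT and 11.9 and 6.93 CPM in the libraries labelled cKO (-0.69 ± 0.40). In both genes the libraries labelled cKO lay below WT.

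Further SMART-seq members with low p in their complex were Ndufb3 at 22.3 and 23.7 CPM in WT and 17.0 and 18.1 CPM in the libraries labelled cKO (-0.39), and Uqcr10 at 32.1 and 25.7 CPM against 25.6 and 19.6 CPM (-0.36). Uqcrc2 was at 71.4 and 77.9 CPM in WT and at 68.0 and 59.5 CPM in the libraries labelled cKO (-0.23). For all of these, edgeR's adjusted p was 1 after rounding. mt-Atp8, with 22 and 15 reads in WT and 8 and 3 in the libraries labelled cKO, had the largest fold change of the mitochondrial genes (-1.59 ± 0.77) on these few reads.

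The genes that stood out in the bulge did not pass the test in SMART-seq. Cox7a2l was at 94.2 and 95.5 CPM in WT and at 104 and 89.8 CPM in the libraries labelled cKO. Uqcrh was at 63.0 and 59.4 CPM in WT and at 63.3 and 56.8 CPM there, and Cox4i1 at 124 and 114 CPM in WT and at 119 and 112 CPM there. mt-Co3 was at 26.3 and 24.8 CPM in WT and at 26.8 and 28.4 CPM in the libraries labelled cKO (0.11). The groups of Cox7a2l, Uqcrh and Cox4i1 overlapped. The difference between the datasets was not tested, and Alkbh5 itself did not separate the SMART-seq groups. Hair germ markers did move with them: 4 of 5 lay lower without overlap in the libraries labelled cKO, against 12.5% of all genes. These markers summed to 681 and 743 reads per 1000000 in WT and to 593 and 452 in the libraries labelled cKO. Their part in the member values was not tested.

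In hair germ SHERRY2, most nuclear members had higher mean values in cKO, none passed the test, and the values followed single libraries. Of 83 tested, 80 had values above 0 (53.1% of all genes did), with a median log2 fold change of 1.35 on the log2(normalized count + 1) scale, against 0.06 over 38953 genes. limma called none at an adjusted p under 0.05, where 0.0077% of all genes were called. At an unadjusted p under 0.05, 14 were higher and none lower, against 2.7% of all genes higher and 1.93% lower, and 19 lay above WT without overlap, against 16.4%. The 14 became 41 without WT library 1, 1 without WT library 2, 0 without cKO library 2 and 3 with the library number as a block. edgeR on the recovered whole reads also called none of 78 tested members, where 0.377% of all genes were called and 0.102% called higher. All 78 were above 0 (47.8% of all genes were), with a median of 1.07, and 20 had an unadjusted p under 0.05, against 2.63% of all genes higher. The second cKO library was the highest for 81 of 83 members and the second WT library the lowest for 78. Centred on each gene's mean, the library medians were 0.13 and -1.39 in WT and -0.10 and 1.41 in cKO, so WT library 1 and cKO library 1 lay close together.

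Single members showed that order. Ndufc1, an accessory subunit of complex I, was at 69.5 and 7.91 normalized counts in WT and at 57.2 and 167 in cKO (log2 fold change 1.98 ± 0.69). Ndufa1, a small membrane-arm subunit, was at 37.2 and 7.91 in WT and at 36.7 and 111 in cKO (1.82 ± 0.64). Uqcr10 was at 137 and 34.8 in WT and at 128 and 553 in cKO (1.92 ± 0.85), and Uqcr11 at 205 and 33.2 in WT and at 169 and 644 in cKO (1.98 ± 0.91). In all 4 the groups overlapped, because WT library 1 lay above cKO library 1.

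Cox5a was at 86.1 and 26.9 normalized counts in WT and at 87.3 and 247 in cKO (1.58 ± 0.74), just without overlap. Cox6b1 was at 152 and 34.8 in WT and at 120 and 468 in cKO (1.69 ± 0.85), and Atp5k, subunit e of the ATP synthase, at 113 and 23.7 in WT and at 85.8 and 336 in cKO (1.69 ± 0.78). Sdhd was at 80.2 and 34.8 in WT and at 95.3 and 223 in cKO (1.45 ± 0.74), without overlap. None of these passed the threshold in limma (adjusted p = 0.97 for each). Cox7a2l was at 343 and 82.2 in WT and at 193 and 444 in cKO (0.79 ± 0.99), and without WT library 2 its value turned to -0.23.

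The nuclear share of recovered reads was 0.954% and 0.601% in WT and 1.11% and 1.80% in cKO, without overlap (exact two-sided permutation p = 0.333, the smallest possible). The nuclear median dropped to 0.53 when WT library 2 was left out and to 0.61 when cKO library 2 was. Reads on olfactory and vomeronasal receptor genes moved the other way in the same libraries: they took 0.597% and 1.39% in WT and 0.877% and 0.397% in cKO, against 0.00111 to 0.00217% in the bulge. WT library 2, lowest in respiratory chain reads and highest in receptor reads, also had the fewest reads of all (488648). The part of these in the member values was not tested.

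**Figure D5:**
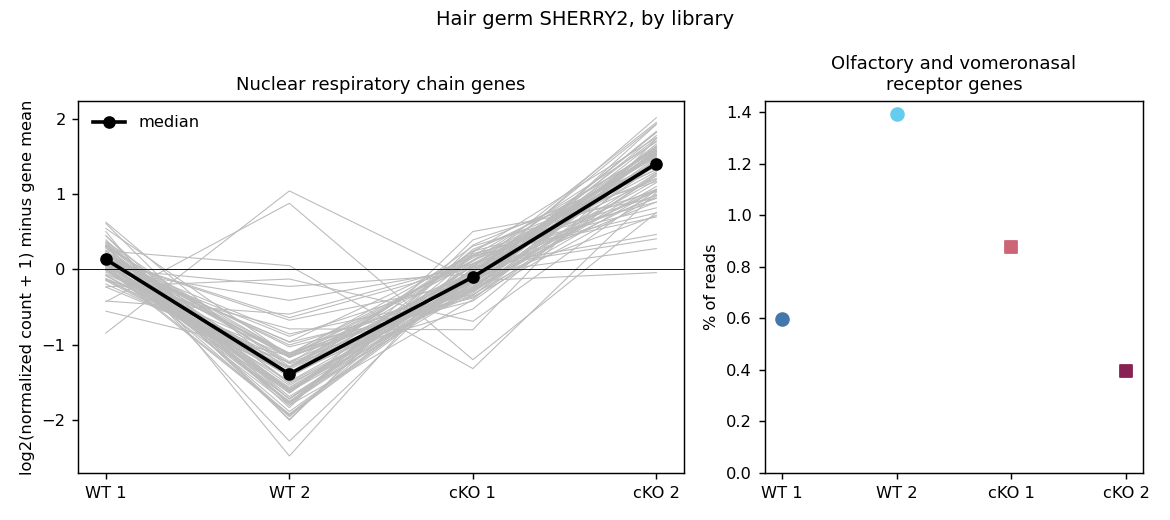
Left, log2(normalized count + 1) of each of 83 nuclear members minus its mean over the 4 hair germ SHERRY2 libraries (grey lines join the values of 1 gene) with the median in black. Right, the percentage of reads on olfactory and vomeronasal receptor genes, where WT library 2 is highest at 1.39% and cKO library 2 lowest at 0.397%, while the left panel has its lowest median in WT library 2 and its highest in cKO library 2.

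Genes that work with the chain were followed in 6 related lists. In the bulge, 51.1% of all genes were below 0 and 3.04% were called. There, 78 mitochondrial ribosomal protein genes, which translate the mitochondrial messages, had a median of -0.21 with 66 below 0, close to the nuclear members. None of the 78 was called. Of 51 assembly factors, 31 were below 0 with a median of -0.11 and none called. Those with the lowest p were Surf1, at 37.7 and 45.7 CPM in WT and 22.0 and 25.3 CPM in cKO (-0.82, adjusted p = 0.0603, edgeR), and Cox14, at 50.6 and 54.8 CPM in WT and 35.8 and 29.0 CPM in cKO (-0.70, adjusted p = 0.0773), both of which help build complex IV. Genes that copy and transcribe the mitochondrial genome had a median of -0.01 (15 of 30 below 0), with Grsf1, an RNA-processing protein, at -0.53 and the topoisomerase Top1mt at 0.58, neither called. The 14 genes of the tricarboxylic acid cycle had a median of 0.03, with 7 on each side of 0 and none called.

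Members of the other lists passed the test in the bulge, where 3.04% of all genes did. Coq10b, a coenzyme Q binding protein, fell from 105 and 69.5 CPM in WT to 31.3 and 27.5 CPM in cKO (log2 fold change -1.57 ± 0.22, adjusted p = 0.0152, edgeR), 1 of 18 tested carrier and coenzyme Q genes. Of 12 tested regulators of mitochondrial biogenesis, Myc fell from 277 and 160 CPM to 85.6 and 81.1 CPM (-1.39 ± 0.25, adjusted p = 0.0323), and Ppard rose from 31.6 and 27.6 CPM to 65.0 and 57.1 CPM (1.04 ± 0.17, adjusted p = 0.0237). Without WT mouse 2, Ppard was at 0.94 with an adjusted p of 0.0909. Myc is also a general regulator of growth genes, and Ppard a receptor for fatty acids. In SMART-seq and hair germ SHERRY2, none of the 6 lists had a called member, where 0% and 0.0077% of all genes were called. List medians ran from -0.18 (coenzyme Q and carriers) to -0.01 (regulators) in SMART-seq, and from 0.54 (regulators) to 1.05 (mitochondrial ribosomal proteins) in hair germ SHERRY2.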

How the data were processed

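The bulge file holds read counts per gene and FPKM, both as deposited by the authors, with Ensembl identifiers, positions and exonic sizes. The hair germ SMART-seq file holds the deposited counts per gene. The hair germ SHERRY2 file holds a deposited normalized signal (counts divided by size factors), from which whole reads were recovered (100% of values whole within 0.01 reads). For SHERRY2, STAR, featureCounts and DESeq2 are named with GRCm38 and mm10, and for SMART-seq also fastp, HISAT2 and GRCm39, per the submitters' processing notes. The sources used here do not state strand or multi-mapping settings. Symbols of 13 hair germ SHERRY2 members were matched through RefSeq synonyms, 3 stayed unmatched, and 82 members are in all 3 tables. Columns of that table were assigned by the tissue and genotype in their names, which do not give the library method. They were taken as SHERRY2 because the SMART-seq libraries have their own counts, so the method is an inference. Libraries 1 and 2 of that table carry the columns' numbers and are not tied to a mouse.

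Counts were tested with edgeR 4.0.16 (quasi-likelihood, TMM, filterByExpr) in R 4.3.3, over all genes, cKO against WT, with Benjamini-Hochberg adjustment at 0.05. The signal was tested with limma 3.58.1 on log2(value + 1) for means of at least 1, and its fold changes understate low genes. CPM values use TMM-scaled library sizes. DESeq2 1.42.0, other scalings and filters, a replicate block and leave-one-out fits were alternatives. The fits were tested on simulated data. Named genes were every mitochondrial gene, every called member, the 2 lowest p and the highest per-length level of each complex, the isoform sets and the 2 lowest p of each related list. In addition, Ndufs1, Uqcrc1, Uqcrc2, Sdha and Atp5b, and Atp5h among the sequences, were named after their values were seen. Members and lists were chosen with earlier results of these data known. With 2 libraries per group, p-values rest on the spread between these libraries, with each gene's spread drawn towards that of the other genes. They cover no mice beyond these.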

Additional observations from a re-analysis of the deposited data

Results flagged for a closer look

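The following values are some of those with both cKO libraries on one side of both WT libraries in one dataset and on the other side in another. Such members numbered 5 between the bulge and SMART-seq, 6 between the bulge and hair germ SHERRY2, and 3 between SMART-seq and hair germ SHERRY2. Those not described below are Atp5h, Ndufb5, Atp5pb, Cox6c, Ndufs3, Ndufs7 and Uqcrc2. The share of all genes that did so was not computed, so these counts are not read as a disagreement between datasets. In single datasets, 44 of 79 nuclear members lay lower without overlap in the bulge (26.2% of all genes did). In hair germ SHERRY2, 19 of 83 lay higher (16.4% of all genes did). In SMART-seq, cKO means the libraries labelled cKO, since Alkbh5 did not separate the groups there (WT 136 and 94.2 CPM, labelled cKO 83.5 and 106 CPM). The difference between datasets was not tested for any of them, and the datasets differ in cell population, library method or both. The bulge also differs from the hair germ datasets in RNA input.

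The complex IV share of reads was lower in cKO in the bulge (log2 ratio of the cKO to the WT mean -0.23) and higher in hair germ SHERRY2 (0.975). Cox8a, a small complex IV subunit, was at -0.17 in the bulge and at 1.76 in hair germ SHERRY2, both as log2 fold changes. Cox5a was at -0.69 in SMART-seq and at 1.58 in hair germ SHERRY2. Atp5e was at -0.71 in the bulge and at 0.21 in SMART-seq. The mitochondrial genes mt-Co2 (-0.28 in the bulge, 0.17 in SMART-seq) and mt-Co3 (-0.80 and 0.11) are both in the stretch with look-alike genes on chromosome 1.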

How the results depend on the processing

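In the bulge, 476 genes were called over all genes, against 809 with library totals only, 1549 without the filter, 1191 with DESeq2 and 218 to 1601 when a library was left out. Nuclear members called were 1, against 2 with DESeq2 size factors, 6 without the filter, 4 with DESeq2 and 0 to 5 when a library was left out (0 without WT mouse 2). Mitochondrial members called were 0, against 1 without the filter, 1 with DESeq2 and 0 to 2 when a library was left out. The nuclear median was -0.082 with library totals only. Leaving out a library moved the mitochondrial median between -0.39 and -0.0228 in the bulge and between -0.39 and 0.0407 in SMART-seq, and the nuclear SMART-seq median between -0.17 and 0.0443. SMART-seq had 30 calls over all genes without the filter and 0 otherwise, with none among members under any alternative (179 genes had an unadjusted p under 0.05, edgeR).

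Hair germ SHERRY2 had 3 calls over all genes, against 0 with a pseudocount of 0.1, 0 without the filter, 0 with DESeq2, 63 with edgeR on recovered reads, 15 scaled to library totals (added after seeing the data), 69 with edgeR and library totals only (also added) and 0 to 105 when a library was left out, or 1 to 113 in edgeR (16 without cKO library 2). No member was called in any of these, and the nuclear median stayed between 0.37 and 2.09.

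Signs of small values turned. Atp5a1 (-0.01) was at 0.0095 with DESeq2 size factors, 0.16 with library totals, 0.0026 without the filter, 0.0111 with DESeq2, and -0.10 to 0.11 when a library was left out. Cox8a in the bulge was at 0.0068 with library totals. When a library was left out, mt-Nd5 in the bulge ran from -0.26 to 0.65 and Cox7a2l in hair germ SHERRY2 from -0.23 to 1.82 (edgeR on recovered reads -0.21 without WT library 2 and -0.16 without cKO library 2). The log2 ratio of cKO to WT ran from -0.14 to 0.0634 for the nuclear share and -0.18 to 0.0527 for the mitochondrial share in the bulge. The ratio of both ran from -0.24 to 0.19 there and from -0.30 to 0.26 in SMART-seq, where the nuclear share ran from -0.15 to 0.10 and the mitochondrial share from -0.20 to 0.11. The cause was not tested.

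With the replicate block, calls over all genes were 506 in the bulge, 0 in SMART-seq and 5 in hair germ SHERRY2, with 1, 0 and 0 nuclear members. The numbers are not stated to pair the mice. Over the genes tested, same-numbered libraries deviated with correlations of -0.0719, 0.23 and -0.189 in these datasets. With 2 libraries per group, such a correlation cannot decide whether the libraries were paired.

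At 488648 reads, WT library 2 limits what hair germ SHERRY2 can resolve.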
